A study of Mus musculus with 33 samples.

Results

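Of the 27825 genes listed in each of 3 mouse tongue tables, 9 were chosen by symbol as genes of Schwann cells and their myelin. They are Mbp, Pmp22, Mag, Prx, Cnp, Sox10, S100b, Egr2 and Ngfr. All 9 were also found among the 25965 genes of a table of sorted costal chondrocytes, a cell population of the rib cartilage that served as a contrast. Zac1 (Plagl1) is an imprinted gene, which wild type mice express from a single parental allele. RNA was sequenced from tongues with expression of Zac1 from both alleles, called biallelic here, and from wild type tongues, at E13.5, P0 and P20, with 3 biological replicates of each genotype at each stage. The labels describe the biallelic tongues as coming from Zac1o knockout mice, and nothing more on that allele is given. The chondrocytes came from E18.5 ribcages, with 6 biallelic and 5 wild type animals, and were sorted for Cd24a and Cd200 as prehypertrophic cells. No label used here gives sex, litter or strain. Whole tongues hold muscle, connective tissue, epithelium and nerve together, so fewer Schwann cells and less RNA per Schwann cell cannot be told apart.

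Schwann cells ensheath the axons of peripheral nerves, and myelinating Schwann cells wrap larger axons in a compacted spiral of membrane. Sox10 is needed throughout the lineage, and Egr2 (also called Krox20), a zinc finger factor, switches on the genes of myelin proteins and lipids as Schwann cells begin to myelinate. Immature and non-myelinating Schwann cells carry Ngfr, the low-affinity neurotrophin receptor p75, which myelinating cells lose. The nerves of the tongue carry taste, touch and motor fibres.

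The promoters of Mag, Egr2, Prx and Cnp are shown because Mag and Egr2 were each other's near neighbours in pattern across libraries, Prx was higher at each later stage, and Cnp was the member with the smallest genotype p in the chondrocytes. The sequences come from RefSeq's promoter table, on GRCm38.p6, from 250 bases before to 50 bases after a gene start, read along the gene's strand. The promoters of 7 of the 9 members were examined, since Sox10 had no entry in that table and Mbp was left out. Where a gene had several starts, the one nearest to its annotated 5′ end was taken. Capitals mark matches on either strand to 3 patterns, which are ACAANG for SOX factors, GNGNGGGNG for EGR factors and GGGGCCCC for the GC-rich element bound by Zac1.
Mag (chr7:30914272-30914571, minus strand): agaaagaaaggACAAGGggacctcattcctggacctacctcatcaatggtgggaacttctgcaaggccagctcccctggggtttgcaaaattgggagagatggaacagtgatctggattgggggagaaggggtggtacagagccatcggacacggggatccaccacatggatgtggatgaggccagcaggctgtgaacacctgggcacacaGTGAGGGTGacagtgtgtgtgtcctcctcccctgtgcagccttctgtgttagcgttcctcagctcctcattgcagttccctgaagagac
Egr2 (chr10:67535249-67535548, plus strand): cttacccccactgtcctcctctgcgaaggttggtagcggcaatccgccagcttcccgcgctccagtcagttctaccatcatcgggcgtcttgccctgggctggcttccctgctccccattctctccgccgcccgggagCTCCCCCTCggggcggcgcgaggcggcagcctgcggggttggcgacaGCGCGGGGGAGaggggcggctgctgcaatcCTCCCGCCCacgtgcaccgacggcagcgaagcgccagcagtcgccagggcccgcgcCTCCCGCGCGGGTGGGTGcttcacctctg
Prx (chr7:27499074-27499373, plus strand): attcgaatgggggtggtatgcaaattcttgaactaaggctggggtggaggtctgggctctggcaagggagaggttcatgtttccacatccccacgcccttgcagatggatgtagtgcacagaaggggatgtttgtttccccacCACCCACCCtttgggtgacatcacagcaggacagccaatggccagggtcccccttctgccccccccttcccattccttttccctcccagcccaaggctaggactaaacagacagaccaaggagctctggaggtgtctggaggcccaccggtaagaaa
Cnp (chr11:100574689-100574988, plus strand): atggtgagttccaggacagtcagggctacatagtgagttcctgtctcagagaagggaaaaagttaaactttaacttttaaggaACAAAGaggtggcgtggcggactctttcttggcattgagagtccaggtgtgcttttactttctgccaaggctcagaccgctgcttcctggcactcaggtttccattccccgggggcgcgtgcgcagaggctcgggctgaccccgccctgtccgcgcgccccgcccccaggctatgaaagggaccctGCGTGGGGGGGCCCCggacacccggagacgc

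Among the 7 promoters, the SOX pattern was found in Mag, Cnp and S100b, and 41.2% of all 32851 promoters in the table hold it. The EGR pattern was found in Mag, Prx, Cnp, Egr2 and Ngfr, against 39.6% of all promoters. It matched 7 times in Egr2 and 8 times in Ngfr, in windows of 72.0% and 71.7% G and C, against a median of 52.7% over all promoters. A narrower EGR pattern, GNGTGGGNG, tried after those matches had been seen, was found in Prx, Cnp and Egr2 and in 14.3% of all promoters. GGGGCCCC was found in Cnp alone, 27 bases after the start, where it overlaps the EGR matches, and in 1.08% of all promoters. These matches describe letters in a window, and none of the 3 patterns was found in the Pmp22 window.

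The values are RPM, reads scaled to each library's own total. These totals ran from 36832717 to 92249098 reads for tongue libraries and from 2938462 to 15689559 for chondrocyte libraries, with no correction for gene length. A gene with 0 reads stands at the value of 0.9 reads on the log2 scale. A count of 0 allows a level of up to 3 reads, which is 0.0325 to 0.0814 RPM in a tongue library and 0.191 to 1.02 RPM in a chondrocyte library, for counting error only. Plagl1 averaged 203.2 ± 62.9 RPM in biallelic and 87.6 ± 19.8 RPM in wild type tongues at E13.5, 473.0 ± 37.8 and 231.2 ± 10.97 RPM at P0, and 64.9 ± 13.2 and 26.2 ± 3.83 RPM at P20 (SD, n = 3 each). In chondrocytes it lay between 17.55 and 49.99 RPM in biallelic and between 3.18 and 15.3 RPM in wild type animals, so it was higher in every biallelic library of each table. On the first principal component, biallelic replicate 3 stood apart at E13.5, biallelic replicate 1 and wild type replicate 2 at P0, biallelic replicate 3 at P20, and wild type animals 7, 8 and 9 among the chondrocytes. Oligodendrocytes, the myelinating cells of the brain and spinal cord, share Mbp, Mag, Cnp and Sox10. A list of 10 markers of these cells, none a member here, summed to 2.34 to 6.38 RPM in biallelic and 2.62 to 6.84 RPM in wild type tongue libraries, and Olig1 and Olig2 had 0 reads in every P20 library.

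No member that was tested was called as different between biallelic and wild type tongues at any stage. The test was limma's moderated test with Benjamini-Hochberg adjustment over all genes tested. Of the 9 members, 6 passed the expression filter of 1 RPM in 3 of 6 libraries at E13.5, 6 at P0 and 7 at P20, and 0 of these were called at an adjusted p under 0.05. The background was also low, with 0.0% of 11869 genes called at E13.5, 0.016% of 12489 at P0 (0.00801% higher and 0.00801% lower) and 0.0% of 12693 at P20. At an unadjusted p under 0.05 there were 386, 412 and 286 genes at these stages, and limma-voom on the recovered reads called 0, 1 and 0. Among the members that passed the filter, the smallest unadjusted p was 0.14, for Sox10 at P20. In limma's fit with no filter, Mag at P0 had an unadjusted p of 0.00833 and an adjusted p of 0.762. Plagl1, 2.29-fold higher in biallelic tongues at E13.5 and 2.46-fold at P20, was not called there by limma either (adjusted p = 0.992 at E13.5). At P0 it was called, at 2.04-fold (adjusted p = 0.0469). A change of that size can thus miss the threshold. In 1 fit of all 18 tongue libraries, the genotype effect averaged over the stages called 0 of 8 members, against 0.022% of 13663 genes (0.0146% higher and 0.00732% lower), and the median of the 8 log2 fold changes was 0.015, against -0.012 over all genes tested. A p that misses the threshold does not show equal levels, so the averaged log2 fold changes of biallelic over wild type are given with 95% intervals. Among the myelin proteins they were 0.01 for Mbp (-0.19 to 0.21), -0.16 for Pmp22 (-0.45 to 0.14), -0.17 for Prx (-0.63 to 0.29) and 0.02 for Cnp (-0.22 to 0.26). Sox10 had 0.19 (-0.09 to 0.48) and Ngfr -0.06 (-0.32 to 0.19). The intervals were widest for the members with the fewest reads, at 0.47 for Mag (-0.48 to 1.42) and 0.43 for Egr2 (-0.41 to 1.27).

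**Figure D1:**
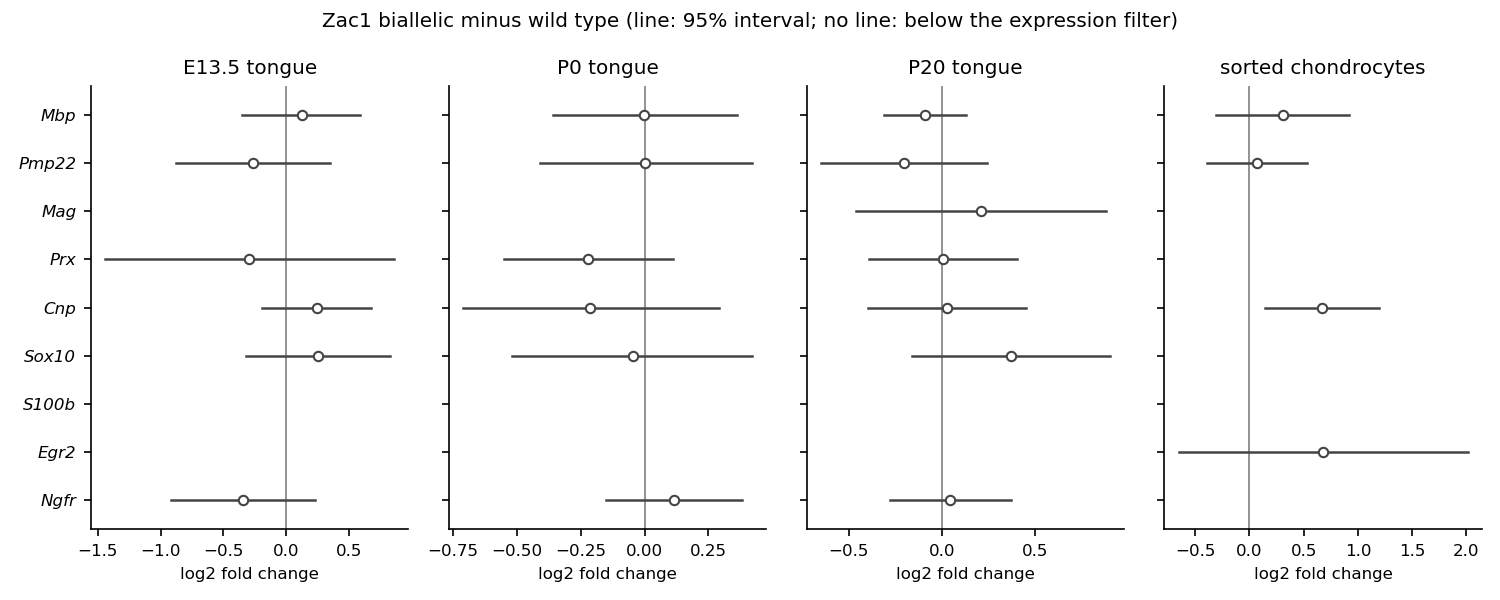
The log2 fold change of biallelic over wild type is plotted for each member that passed the expression filter, with its 95% interval, in the 3 tongue tables and in the sorted chondrocytes. Open points mark an adjusted p above 0.05, every point is open, and the Mbp interval at P20 runs from -0.31 to 0.13.

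The structural proteins of myelin are taken first. Mbp, on chromosome 18, encodes myelin basic protein, which holds the cytoplasmic faces of the compacted membrane together. At E13.5 Mbp had 9.82, 11.7 and 7.98 RPM in biallelic tongues, against 11.2, 7.27 and 8.73 RPM in wild type tongues. At P0 it had 16.4, 11.45 and 12.6 RPM in biallelic tongues, against 14.3, 13.8 and 12.1 RPM in wild type tongues. At P20 it had 56.8, 60.8 and 52.9 RPM in biallelic tongues, against 59.1, 62.3 and 60.0 RPM in wild type tongues. The genotypes overlapped at each stage, and all 6 P20 libraries lay above all 6 P0 libraries.

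Mbp was higher at P0 than at E13.5, 1.37-fold in biallelic tongues (log2 fold change 0.46 ± 0.17, SE, adjusted p = 0.0194) and 1.49-fold in wild type tongues (0.58 ± 0.17, adjusted p = 0.00448). The biallelic call was lost without E13.5 biallelic replicate 3 and without P0 biallelic replicate 1, and its adjusted p ran from 0.00374 to 0.115 over the alternatives. Between P0 and P20 it rose 4.25-fold in biallelic tongues (log2 fold change 2.09 ± 0.17, adjusted p = 1.15e-07) and 4.53-fold in wild type tongues (2.18 ± 0.17, adjusted p = 8.65e-08). These and the other stage tests are contrasts of limma's fit of all 18 tongue libraries, adjusted over 13663 genes. E13.5 RNA was extracted with the AllPrep kit and P0 and P20 RNA with TRIsure, so stage and extraction cannot be told apart in the step to P0, while P20 and P0 share the reagent.

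Pmp22, on chromosome 11, encodes peripheral myelin protein 22, a membrane protein of compact myelin whose dosage is critical in inherited neuropathy and which many non-neural cells also express. It measured 4.34, 6.05 and 9.06 RPM in biallelic tongues at E13.5, against 5.85, 8.28 and 8.56 RPM in wild type tongues. At P0 it measured 56.3, 43.3 and 39.0 RPM in biallelic tongues, against 49.0, 52.1 and 37.0 RPM in wild type tongues. At P20 it measured 33.6, 39.7 and 52.0 RPM in biallelic tongues, against 47.1, 55.8 and 40.3 RPM in wild type tongues. Every P0 library lay above every E13.5 library, while the P20 and P0 libraries overlapped. The step to P0 was 7.36-fold in biallelic tongues (log2 fold change 2.88 ± 0.25, SE, adjusted p = 1.64e-08) and 6.11-fold in wild type tongues (2.61 ± 0.25, adjusted p = 5.21e-08). Between P20 and P0 the log2 fold changes were -0.15 ± 0.25 in biallelic and 0.05 ± 0.25 in wild type tongues, and neither passed the test.

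Prx, on chromosome 7, encodes periaxin, a scaffold protein of the outer Schwann cell membrane that links myelin to the basal lamina. It had 2.91, 3.12 and 0.729 RPM in biallelic tongues at E13.5, against 1.99, 2.75 and 2.22 RPM in wild type tongues. At P0 the values were 4.22, 3.83 and 3.56 RPM in biallelic tongues, against 5.02, 4.51 and 4.03 RPM in wild type tongues. At P20 they were 10.8, 13.7 and 16.1 RPM in biallelic tongues, against 12.5, 15.3 and 12.3 RPM in wild type tongues. The low E13.5 value of 0.729 RPM, or 35 reads, came from biallelic replicate 3, the library that stood apart at that stage. Each later stage lay above the earlier one in every library. Prx rose after birth, by P20 3.46-fold in biallelic tongues (adjusted p = 0.00116) and 2.95-fold in wild type tongues (adjusted p = 0.00315). Prx overlaps the antisense gene Gm15541 over 25.9% of its length, and since no source used here gives the strand setting of the counting, reads of the 2 genes cannot be told apart with certainty.

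Cnp, on chromosome 11, encodes an enzyme of the cytoplasmic channels of non-compact myelin. Its E13.5 values were 5.31, 5.24 and 4.62 RPM in biallelic tongues, against 4.17, 3.99 and 4.65 RPM in wild type tongues. Its P0 values were 5.46, 4.06 and 3.84 RPM in biallelic tongues, against 5.44, 6.22 and 3.91 RPM in wild type tongues. Its P20 values were 6.52, 7.85 and 10.4 RPM in biallelic tongues, against 8.59, 8.21 and 7.14 RPM in wild type tongues. The E13.5 and P0 libraries overlapped, and all P20 libraries lay above all P0 libraries. Cnp rose after birth, by P20 1.84-fold in biallelic tongues (adjusted p = 0.00185) and 1.56-fold in wild type tongues (adjusted p = 0.0144). The wild type call was lost under median centring, quantile normalization, limma-voom and scaling to listed genes, and without P0 wild type replicate 3 or P20 wild type replicate 1, with adjusted p from 0.00911 to 0.135 over the alternatives. The opposite-strand gene Dnajc7 covers 53.0% of Cnp, with the same limit on telling their reads apart.

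**Figure D2:**
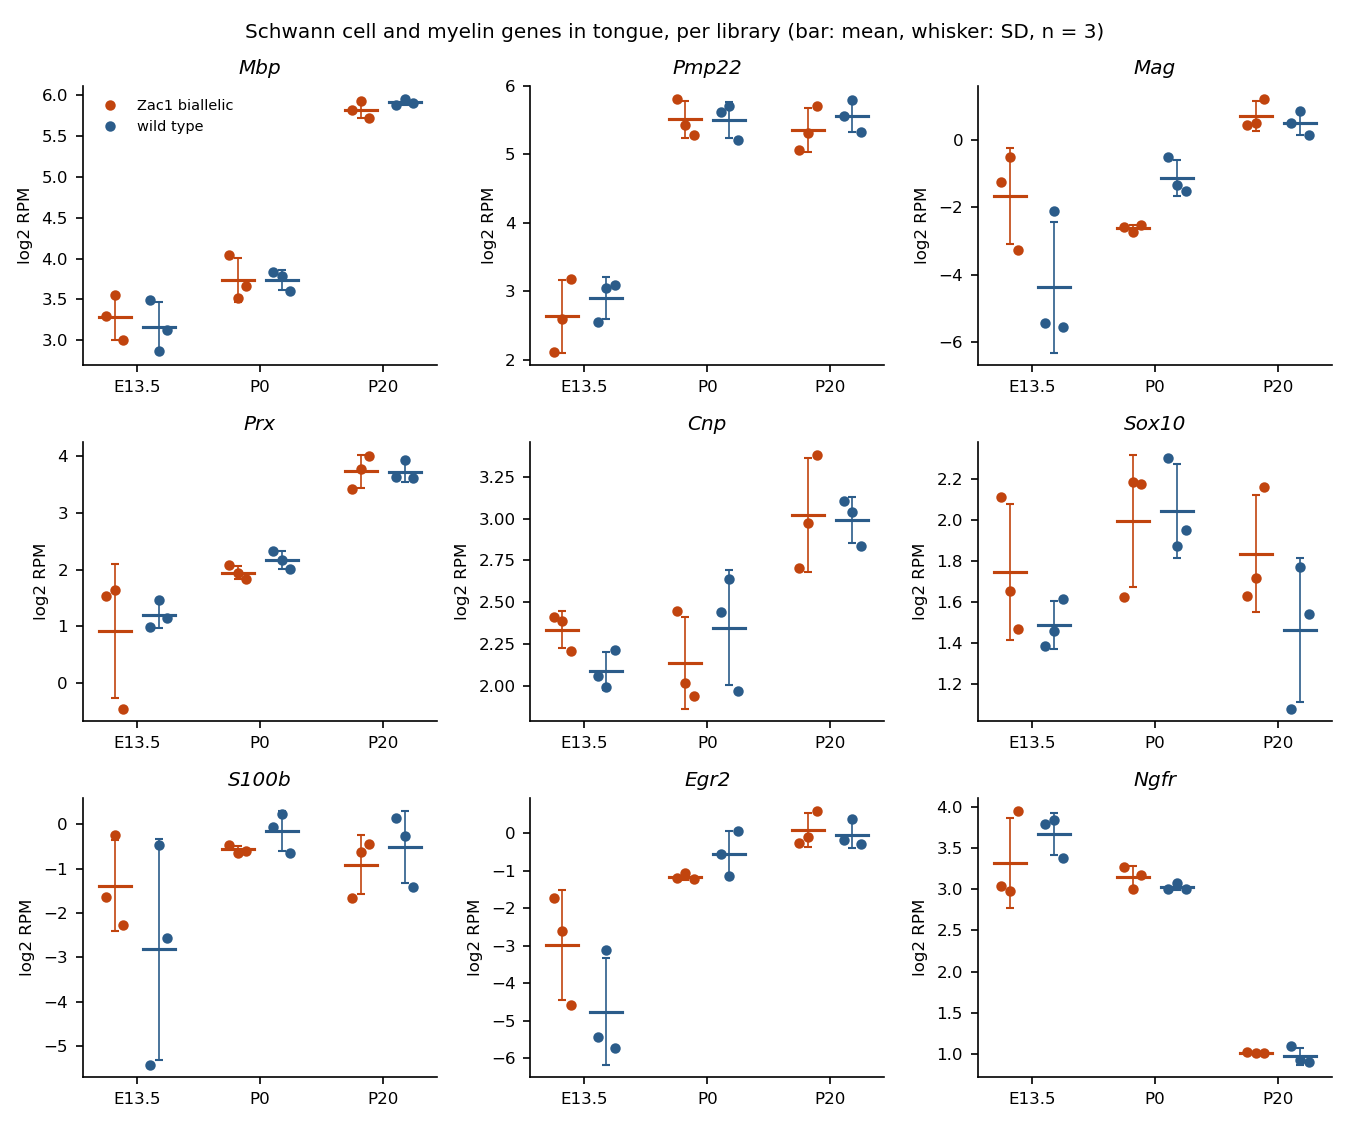
Each point is the log2 RPM of 1 tongue library, with biallelic libraries to the left of wild type libraries at each stage. Bars are means and whiskers SD of 3 libraries, and libraries with 0 reads are drawn at the value of 0.9 reads, which is the case for Mag, S100b and Egr2 at E13.5. All P20 libraries lie above all P0 libraries for Mbp, Mag, Prx and Cnp and below them for Ngfr.

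Mag, on chromosome 7, encodes the myelin-associated glycoprotein of the membrane that faces the axon, and it was measured from few reads. At E13.5 it had 0.416, 0.706 and 0.104 RPM in biallelic tongues, from 18, 26 and 5 reads. In wild type tongues at E13.5 it had 0, 0.229 and 0.0211 RPM, from 0, 12 and 1 reads. At P0 it had 0.166, 0.150 and 0.173 RPM in biallelic tongues, from 8, 10 and 13 reads. In wild type tongues at P0 it had 0.698, 0.396 and 0.347 RPM, from 43, 28 and 32 reads. The biallelic group lay below the wild type group at P0 without overlap, and Mag was the 1 member of the 9 whose genotypes did not overlap at a tongue stage. At P0 8.75% of the 17099 genes above 3 reads in at least 3 libraries had groups that did not overlap, against 10.1% at E13.5, 7.08% at P20 and 0.803% in the chondrocytes. At E13.5 the groups overlapped, and the biallelic mean was the higher, at 0.409 ± 0.301 RPM against 0.0834 ± 0.127 RPM in wild type tongues (SD, n = 3 each).

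Mag passed the expression filter of neither table. In limma's fit with no filter the P0 log2 fold change of biallelic over wild type was -1.49 ± 0.47 (SE, p = 0.00833), with an adjusted p of 0.762. The change of the genotype difference between E13.5 and P0, tested as an interaction in the fit of all 18 libraries, was -4.19 ± 1.10 on the log2 scale (SE, p = 0.00145), with an adjusted p of 0.637. It was called without E13.5 wild type replicate 2, the wild type library with 12 Mag reads, at an adjusted p of 0.0474. Over all alternatives the adjusted p of this interaction ran from 0.0474 to 0.998. On the log2(RPM + 1) scale it was -0.69, since values this low depend on what stands for 0 reads. At P20 Mag had 1.35, 1.40 and 2.32 RPM in biallelic tongues, against 1.42, 1.80 and 1.10 RPM in wild type tongues, and the groups overlapped. By P20 it had risen 10.1-fold over P0 in biallelic tongues (adjusted p = 0.00237). The wild type change of 3.09-fold did not pass (adjusted p = 0.0958, and 0.00166 to 0.21 over the alternatives). The difference between these steps did not pass either (log2 difference 1.705 ± 1.096, SE, unadjusted limma p = 0.139). From E13.5 to P0 the wild type value rose 9.47-fold (adjusted p = 0.00115) and the biallelic log2 fold change was -0.95 ± 0.78 (adjusted p = 0.273). That wild type rise was lost under quantile normalization, where the log2 fold change was 0.30.

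The regulators follow. Egr2, on chromosome 10, the factor that drives the myelin programme, was also measured from few reads in tongue. At E13.5 it had 0.3003, 0.163 and 0.0416 RPM in biallelic tongues, from 13, 6 and 2 reads, against 0, 0.114 and 0 RPM in wild type tongues, from 0, 6 and 0 reads. At P0 it had 0.435, 0.479 and 0.426 RPM in biallelic tongues, against 0.682, 0.452 and 1.03 RPM in wild type tongues. At P20 it had 0.839, 0.937 and 1.51 RPM in biallelic tongues, against 0.872, 1.29 and 0.816 RPM in wild type tongues. Genotypes overlapped at each stage, and every P0 library lay above every E13.5 library. The step to P0 passed in biallelic tongues (log2 fold change 1.81 ± 0.69, SE, adjusted p = 0.0245) and in wild type tongues (4.20 ± 0.69, adjusted p = 3.33e-05), and the wild type value depends on the 0.9 reads that stand for 0 in 2 of its E13.5 libraries. Under quantile normalization the biallelic value was -0.48, so its direction turned, its adjusted p ran from 0.00569 to 0.44 over the alternatives, and the wild type value was positive in every setting. The change of the genotype difference between E13.5 and P0 was -2.39 ± 0.98 (SE), with an adjusted p of 0.839.

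**Figure D3:**
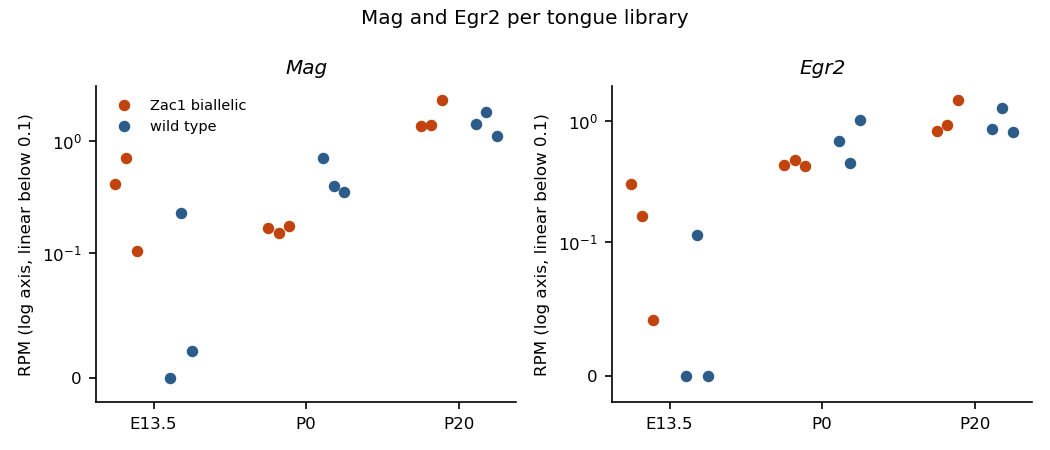
RPM of Mag and Egr2 in each of the 18 tongue libraries, on an axis that is logarithmic above 0.1 RPM and linear below, with biallelic libraries to the left of wild type libraries. The 3 biallelic Mag values at P0 lie between 0.150 and 0.173 RPM, below the wild type values of 0.347 to 0.698 RPM.

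Sox10, on chromosome 15, the factor of the whole Schwann cell lineage, varied less over the stages. At E13.5 it had 4.32, 3.15 and 2.77 RPM in biallelic tongues, against 2.62, 2.75 and 3.07 RPM in wild type tongues. At P0 it had 3.08, 4.55 and 4.52 RPM in biallelic tongues, against 4.93, 3.66 and 3.87 RPM in wild type tongues. At P20 it had 3.09, 3.29 and 4.48 RPM in biallelic tongues, against 2.12, 3.42 and 2.91 RPM in wild type tongues. Genotypes overlapped at each stage, and so did neighbouring stages. The step to P0 passed in wild type tongues (1.47-fold, adjusted p = 0.0392, and 0.00919 to 0.152 over the alternatives, lost under quantile normalization and without any 1 of E13.5 wild type replicates 1 and 2 and P0 wild type replicates 1 and 3) and did not in biallelic tongues (1.19-fold, adjusted p = 0.335), and the difference between these steps did not pass either (log2 difference -0.31 ± 0.33, SE, adjusted p = 0.943). From P0 to P20 the log2 fold change was -0.16 ± 0.23 in biallelic and -0.58 ± 0.23 in wild type tongues, and neither passed (adjusted p = 0.598 and 0.0526).

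Ngfr and S100b are cell markers. Ngfr, on chromosome 11, had 8.20, 7.87 and 15.5 RPM in biallelic tongues at E13.5, against 13.9, 14.3 and 10.4 RPM in wild type tongues. At P0 it had 9.62, 8.01 and 9.001 RPM in biallelic tongues, against 8.02, 8.46 and 8.04 RPM in wild type tongues. At P20 it had 2.05, 2.02 and 2.02 RPM in biallelic tongues, against 2.14, 1.91 and 1.87 RPM in wild type tongues. All P20 libraries lay below all P0 libraries and differed little among themselves, while the genotypes overlapped at each stage. From P0 to P20 Ngfr fell by 2.13 on the log2 scale in biallelic tongues (SE 0.21, adjusted p = 9.19e-07) and fell by 2.05 in wild type tongues (SE 0.21, adjusted p = 1.45e-06). Ngfr was thus the member that fell over the interval in which Mbp, Prx and Cnp rose in both genotypes. From E13.5 to P0 it fell by 0.64 in wild type tongues (adjusted p = 0.00978, and 0.000445 to 0.0602 over the alternatives, lost under median centring, quantile normalization and scaling to listed genes), and the biallelic value was -0.17 ± 0.21 (adjusted p = 0.444). The difference between these steps did not pass (log2 difference 0.46 ± 0.29, SE, adjusted p = 0.889).

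S100b, on chromosome 10, encodes a calcium-binding protein used as a marker of Schwann cells and other glia, and it passed the expression filter of no table. In biallelic tongues it had 0.208 to 0.842 RPM at E13.5, 0.644 to 0.724 RPM at P0 and 0.315 to 0.736 RPM at P20. In wild type tongues it had 0 to 0.725 RPM at E13.5, 0.640 to 1.19 RPM at P0 and 0.375 to 1.11 RPM at P20. The genotypes overlapped at each stage, and neighbouring stages overlapped as well. In limma's fit with no filter, the log2 fold change of S100b from E13.5 to P0 was 2.66 ± 0.87 in wild type tongues (SE, adjusted p = 0.0108). In biallelic tongues it was 0.82 ± 0.87 (adjusted p = 0.412), and the difference between these steps did not pass (adjusted p = 0.874). The wild type value depends on the 0.9 reads that stand for 0 in E13.5 wild type replicate 1. Dip2a on the opposite strand covers 23.7% of S100b.

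Counted over the members, the step from E13.5 to P0 was called for 4 of 8 in biallelic tongues, all 4 higher at P0, against 77.2% of all genes called (39.7% higher and 37.6% lower). In wild type tongues it was called for 7 of 8, 6 higher and 1 lower, against 77.8% of all genes (37.9% higher and 39.9% lower). The step from P0 to P20 was called for 5 of 8 in biallelic tongues, 4 higher and 1 lower, against 47.2% of all genes (29.9% higher and 17.3% lower), and for 4 of 8 in wild type tongues, 3 higher and 1 lower, against 46.6% (31.7% higher and 14.9% lower). Of the genes called between P20 and P0, 63.4% were higher at P20 in biallelic and 68.0% in wild type tongues, and median centring made these shares 45.4% and 46.9%, with medians over all genes of -0.018 and -0.002. The median log2 fold change of the 8 members from P0 to P20 was 1.06 in biallelic and 0.58 in wild type tongues, against 0.18 and 0.22 over all genes tested. Without E13.5 biallelic replicate 3, or without P0 biallelic replicate 1, the count of 4 in biallelic tongues became 2.

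**Figure D4:**
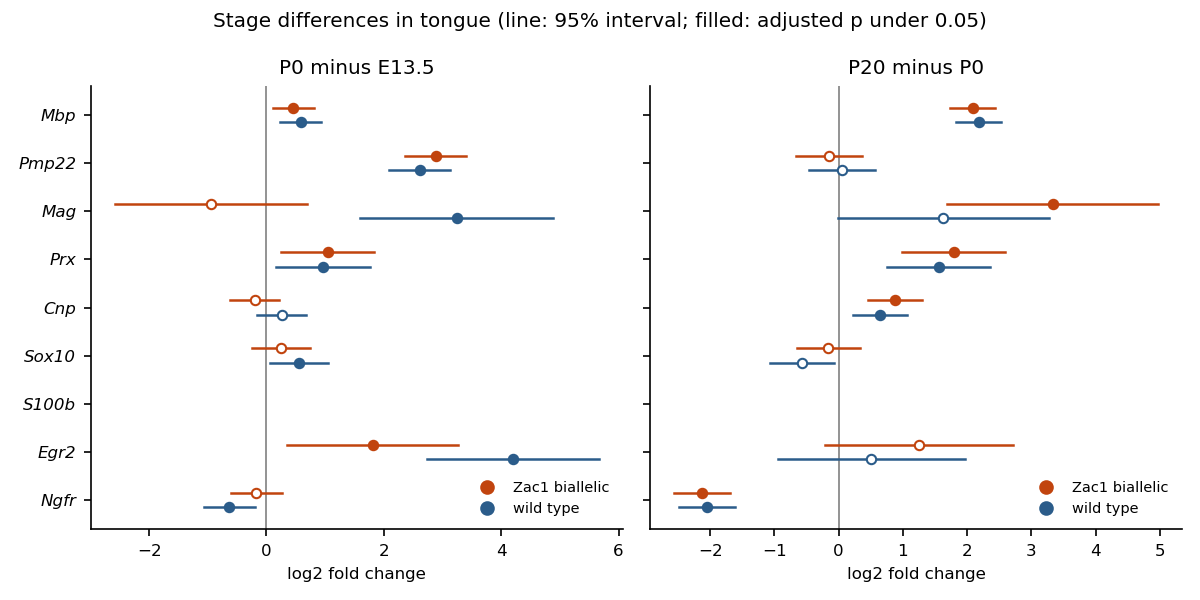
The log2 fold changes between neighbouring stages, with 95% intervals, are plotted for the 8 members that passed the filter, biallelic tongues above wild type tongues. Filled points have an adjusted p under 0.05, and from P0 to P20 Mbp stands at 2.09 and 2.18 and Ngfr at -2.13 and -2.05 in biallelic and wild type tongues.

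Other genes of myelin and of Schwann cells were examined as lists. Of 19 tested genes for myelin structure and lipids, 10 rose and 1 fell from P0 to P20 in biallelic tongues, and 10 rose and 0 fell in wild type tongues, with median log2 fold changes of 1.003 and 0.902, against 0.18 and 0.22 over all genes. Over all genes at this step, 29.9% rose and 17.3% fell in biallelic tongues, and 31.7% rose and 14.9% fell in wild type tongues. Fa2h, the fatty acid hydroxylase of myelin lipids, had 2.42 ± 0.517 RPM at P20 and 0.138 ± 0.030 RPM at P0 in biallelic tongues, and 2.11 ± 0.373 and 0.254 ± 0.110 RPM in wild type tongues (SD, n = 3 each, adjusted p = 1.4e-06 and 2.32e-05). Gldn, which encodes the gliomedin of the node of Ranvier, rose 14.0-fold in biallelic and 10.7-fold in wild type tongues (adjusted p = 0.000542 and 0.00127). Cldn19, a claudin of Schwann cell junctions, rose 11.8-fold and 6.32-fold (adjusted p = 6.87e-06 and 0.000124).

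From E13.5 to P0, 6 of the 19 myelin genes rose and 4 fell in biallelic tongues, and 8 rose and 2 fell in wild type tongues, with medians of 0.20 and 0.47, against 0.05 and -0.04 over all genes, of which 39.7% rose and 37.6% fell in biallelic and 37.9% rose and 39.9% fell in wild type tongues. Cldn19 had 0 reads in every E13.5 library. Set against a floor of 3 reads per library, its P0 mean was at least 5.74-fold higher in biallelic and at least 10.8-fold higher in wild type tongues, and the medians of the list stayed the same with Cldn19 at that bound. Mal, a raft protein of myelin membranes, had 6.07 ± 2.71 RPM in biallelic and 7.35 ± 1.98 RPM in wild type tongues at P0, against 0.651 ± 0.406 and 0.263 ± 0.346 RPM at E13.5 (SD, n = 3 each). Gjc3, a connexin of myelinating glia, had 1.75 ± 0.0795 RPM in biallelic and 2.0 ± 0.157 RPM in wild type tongues at P0, against 0.385 ± 0.230 and 0.190 ± 0.125 RPM at E13.5. Ndrg1, which is mutated in an inherited demyelinating neuropathy, rose 9.05-fold in wild type tongues (adjusted p = 0.00222). In biallelic tongues Ndrg1 had 21.5 ± 2.44 RPM at P0 and 21.8 ± 34.2 RPM at E13.5, where the libraries ran from 1.57 to 61.3 RPM (SD, n = 3).

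Genes of immature Schwann cells are given next. Between P0 and P20, 5 of 9 tested fell and 2 rose in each genotype, against 17.3% of all genes lower and 29.9% higher in biallelic and 14.9% lower and 31.7% higher in wild type tongues, with median log2 fold changes of -1.13 in biallelic and -1.47 in wild type tongues, against 0.18 and 0.22 over all genes. Ncam1, the neural cell adhesion molecule, which muscle also expresses, fell by 2.69 on the log2 scale in biallelic and fell by 2.42 in wild type tongues (adjusted p = 3.9e-08 and 1.35e-07). Gap43, a growth-associated protein of axons and immature Schwann cells, fell by 2.41 and 2.33 (adjusted p = 1.6e-06 and 2.66e-06). Fabp7, the brain lipid-binding protein, fell by 2.06 and 2.69 (adjusted p = 0.00622 and 0.000949). Its P20 values were 0.0524 to 0.0566 RPM in biallelic and 0.022 to 0.0872 RPM in wild type tongues. These lie near the 0.0515 to 0.0661 RPM of 3 reads in a P20 library, so the size of its fall is uncertain. Scn7a, a sodium channel of non-myelinating Schwann cells and other cells, ran the other way, with 14.9 ± 3.88 RPM in biallelic and 14.9 ± 1.65 RPM in wild type tongues at P20, against 4.26 ± 0.252 and 4.5 ± 0.856 RPM at P0.

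Of 12 tested regulators, 3 rose and 2 fell from P0 to P20 in biallelic tongues and 2 rose and 2 fell in wild type tongues, with medians of -0.04 and 0.03, against 0.18 and 0.22 over all genes. Over all genes 47.2% were called in either direction at this step in biallelic and 46.6% in wild type tongues. Tfap2a, a factor of neural crest and surface epithelium that stands in this list and in that of immature Schwann cells, rose 2.48-fold in biallelic and 4.18-fold in wild type tongues (adjusted p = 0.000855 and 1.7e-05). Foxd3, a factor of the neural crest, fell by 1.13 on the log2 scale in biallelic and fell by 1.58 in wild type tongues (adjusted p = 0.00902 and 0.000934). From E13.5 to P0, 5 rose and 4 fell in each genotype, against 77.2% of all genes called in biallelic and 77.8% in wild type tongues. Pou3f1, a factor of promyelinating Schwann cells, rose 4.62-fold in biallelic and 6.97-fold in wild type tongues (adjusted p = 0.0279 and 0.00726). It had 0.231 ± 0.155 and 0.241 ± 0.259 RPM at E13.5, against 0.993 ± 0.492 and 0.909 ± 0.258 RPM at P0 (SD, n = 3 each). The lowest wild type E13.5 library had 0 reads, so the wild type fold depends on the value that stands for 0. Among 19 genes of Schwann cell signalling and basal lamina, 10 rose and 4 fell in biallelic tongues and 11 rose and 2 fell in wild type tongues over the same step, against 77.2% and 77.8% of all genes called in either direction. Lama2, the laminin chain of muscle and nerve basal lamina, rose 17.9-fold in biallelic and 15.4-fold in wild type tongues (adjusted p = 2.5e-12 and 4.04e-12). Gdnf, a neurotrophic ligand, rose 4.26-fold and 11.4-fold (adjusted p = 3.72e-06 and 7.84e-09). After birth, 6 of these 19 rose and 6 fell in biallelic tongues and 6 rose and 5 fell in wild type tongues, against 47.2% and 46.6% of all genes called. In the averaged genotype effect 0 genes of these 4 lists were called, against 0.022% of all 13663 genes tested, so this count had little room to differ.

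Other cell types changed with stage beside these genes. The 10 muscle markers all rose from E13.5 to P0 in both genotypes, against 39.7% of all genes higher in biallelic and 37.9% in wild type tongues. Their sum was 24500 to 26000 RPM in biallelic and 24300 to 30100 RPM in wild type libraries at P0, against 475.0 to 623.0 and 378.0 to 674.0 RPM at E13.5, when Myh2 had 0 reads in every library. At P20 the sum was 22300 to 35500 RPM in biallelic and 23700 to 32100 RPM in wild type libraries. The 14 neuronal markers found in the tongue tables summed to 36 to 41.7 RPM in biallelic and 35.6 to 44.5 RPM in wild type libraries at E13.5, 16.4 to 19.1 and 15.5 to 32.1 RPM at P0, and 8.38 to 14.8 and 9.46 to 16.6 RPM at P20. The part of this change of tissue makeup in the stage differences was not tested.

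In the sorted chondrocytes the members split into 4 that were present and 5 at or near 0. Pmp22 averaged 225.8 ± 52.3 RPM in 6 biallelic and 215.1 ± 50.1 RPM in 5 wild type animals. Mbp averaged 27.2 ± 7.77 RPM in biallelic and 23.0 ± 8.99 RPM in wild type animals. Cnp averaged 32.3 ± 8.54 and 20.4 ± 5.72 RPM, and Egr2 averaged 4.32 ± 2.60 and 3.01 ± 2.03 RPM, in biallelic and wild type animals (SD, n = 6 and 5). Sox10 had 1 read in 1 biallelic animal and 0 reads in the other 10 animals. Mag reached 5 reads at most, and Prx, Ngfr and S100b reached 15, 8 and 11 reads at most.

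Sox10, which marks the whole Schwann cell lineage, was thus at or near 0. Foxd3, Sox2 and Tfap2a, which mark early Schwann cells, also had 0 reads in all 11 animals. They were the only genes at 0 throughout in the list of 14 regulators. That list summed to 1090 to 1480 RPM in biallelic and 1200 to 1430 RPM in wild type animals. Of 14 genes of immature Schwann cells, 3 had 0 reads in every biallelic animal and 5 in every wild type animal. Their sums were 4.02 to 10.8 RPM in biallelic and 3.06 to 14.6 RPM in wild type animals. The 12 chondrocyte markers summed to 356.0 to 975.0 RPM in biallelic and 209.0 to 600 RPM in wild type animals. The 8 leukocyte markers summed to 3640 to 4830 RPM in biallelic and 3360 to 4470 RPM in wild type animals, with none of the 8 at 0 and the sum above that of the chondrocyte markers in every group. The part of leukocyte RNA in the levels of Pmp22, Mbp, Cnp and Egr2 was not tested. The chondrocyte and tongue libraries were made by different methods, from polyadenylated RNA and from RNA depleted of ribosomal RNA, so their levels are given side by side without a test.

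**Figure D5:**
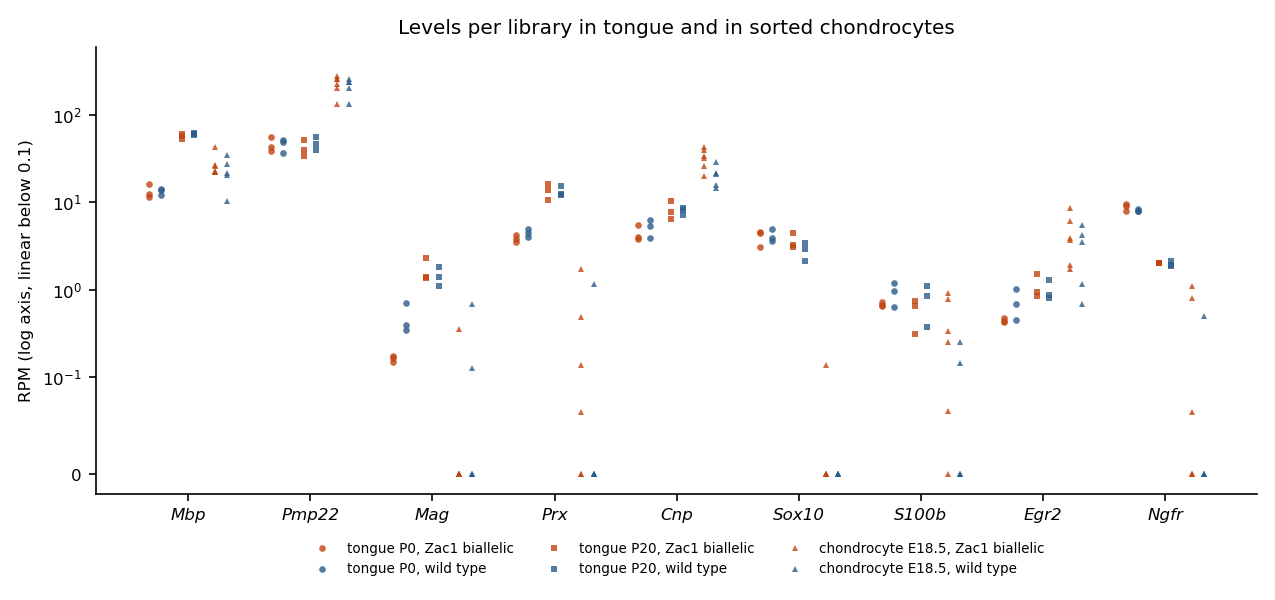
RPM per library of each member in P0 and P20 tongues and in sorted E18.5 chondrocytes, on an axis that is logarithmic above 0.1 RPM and linear below, with biallelic libraries to the left of wild type libraries in each pair of columns. Mag, Prx, Sox10, S100b and Ngfr lie at or near 0 in the chondrocytes, while Pmp22 lies between 132.8 and 277.2 RPM.

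Between genotypes, 0 of the 4 members that passed the chondrocyte filter of 1 RPM in 5 of 11 animals were called by limma, against 0.0% of 11127 genes, with 1298 genes at an unadjusted p under 0.05 and 0 called by limma-voom. Plagl1, 3.35-fold higher in biallelic animals, was not called by limma either (adjusted p = 0.423). Among the 4 members Cnp had the smallest p. It measured 42.6, 40.0, 32.0, 33.8, 25.9 and 19.8 RPM in biallelic animals 1 to 6, against 15.8, 20.9, 14.5, 28.9 and 21.8 RPM in wild type animals 7 to 11. The groups overlapped, since 2 biallelic animals lay below the highest wild type animal. The log2 fold change was 0.67 (95% interval 0.14 to 1.19, p = 0.0172), with an adjusted p of 0.423 that ran from 0.0601 to 0.948 over the alternatives. Without wild type animals 7, 8 and 9, which stood apart from the rest, it was 0.32. The values for Mbp, Pmp22 and Egr2 were 0.31, 0.07 and 0.68, with intervals that included 0, and without those 3 animals they were -0.05, -0.18 and -0.26.

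The genes most like each member in pattern were sought over the 18 tongue libraries, after the mean of each stage had been subtracted from log2 RPM, among 13663 genes. Mag and Egr2 were among the 3 genes most like each other, with a Pearson r of 0.90. The genes most like Mag were Sfrp5, Ano5 and Egr2, and those most like Egr2 were Mag, Sfrp5 and Ttyh1. Both members had 0 to 26 reads in the E13.5 libraries, and a library with 0 reads takes a value set by its own depth, so the r of 0.90 rests in part on such libraries. Mbp was most like Ctnnal1, Fam105b and Tap1 (r of 0.85 to 0.87), and Pmp22 most like Cdh23, Emilin1 and Lrrc17 (0.90 to 0.93). Prx was most like Myadml2, Dnaja4 and Gpd1 (0.92 to 0.93), Cnp most like Thrsp, Aes and Myh2 (0.82 to 0.86), Sox10 most like Acox3, Chst1 and Serp2 (0.75 to 0.79), and Ngfr most like Slc37a2, Gm17615 and Dll1 (0.87 to 0.92). The compact-myelin members Mbp and Pmp22 had an r of -0.21 and Mbp and Prx one of 0.34. These values describe libraries that share depth and tissue makeup, and no p is attached to them.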

How the data were processed

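RNA-seq of mouse tongues (strand-specific dUTP libraries of RNA depleted of ribosomal RNA) and of sorted chondrocytes (SMART-seq2, polyadenylated RNA) was used, per the labels' protocols. The authors deposited 4 tables of log2 RPM per gene. The tools listed per the submitters' processing notes are TopHat2 2.1.0 (tongues), HISAT2 (chondrocytes) and Trim Galore 0.4.2, with the build GRCm38. No source used here names the read counter. Within 0.05 of a read, 100% of values under 1000 reads were whole reads in each library, which gave the library totals. The 33 labelled samples correspond to 29 columns, since 4 biallelic chondrocyte animals have 2 labelled libraries each and 1 column, and each animal counted once.

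Genes at 1 RPM or more in 3 of 6 libraries (5 of 11 in chondrocytes, 3 of 18 in the joint tongue fit) entered limma 3.58.1 (R 4.3.3), with a mean-variance trend and Benjamini-Hochberg adjustment at 0.05 over all genes tested. Fold changes are on the log2 scale as deposited, with 0 reads at 0.9 reads. The fits were tested on simulated data with the same spread for every gene, no outlying library and no genes as low as Mag, Egr2 and S100b. That test therefore does not show how the fits do under those conditions. The 9 members and the lists were chosen with earlier results of these data known. Named list genes are the 4 largest called changes per stage comparison, of which a part is given, and genes alike in pattern are the 3 of highest r. Positions come from the GENCODE annotation on GRCm38. Alternatives were other scalings, filters and pseudocounts, limma-voom on the recovered reads with an own computation of the trimmed mean of M values, a replicate block, and leaving out each library. The labels speak of biological replicates without naming litters. A single listed gene is counted in its list and is not reported here by name.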

Additional observations from a re-analysis of the deposited data

Results flagged for a closer look

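Among 17 groups of chondrocyte animals examined for a value far from the rest by Dixon's test, 7 held one. The rate of about 1 in 20 groups that chance gives does not apply here, since any lone value among animals at 0 passes the test whatever its size. Mbp in biallelic animal 6 stood at 42.55 RPM (374 reads), with the next animal at 26.9 RPM. The other 6 rest on 15 reads or fewer. Prx was 1.706 RPM in biallelic animal 6 (15 reads) and 1.158 RPM in wild type animal 9 (8 reads). Mag was 0.3529 RPM in biallelic animal 3 (5 reads) and 0.6806 RPM in wild type animal 11 (2 reads). Sox10 was 0.1385 RPM in biallelic animal 5 (1 read), and Ngfr was 0.5071 RPM in wild type animal 10 (4 reads). Tongue groups of 3 libraries were not examined.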

How the results depend on the processing

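The number of members called stayed within 1.5 times its main value in 96 of 98 pairs of a comparison and a setting. The settings counted here kept all libraries or left out a fixed set. Many of these pairs are genotype comparisons, with a main count of 0 and few or no genes of any kind called. Such counts had little room to vary. The exceptions were both in the step from E13.5 to P0 in wild type tongues. There 7 members became 4 under quantile normalization and 4 in a fit of the 2 stages alone. Fewer members passed the filter in the fit of the 2 stages alone, and the cause of either drop was not tested. Leaving out 1 library gave 0 to 1 member for the change of the genotype effect between E13.5 and P0, 2 to 4 for the step to P0 in biallelic and 5 to 7 in wild type tongues, and 5 to 5 and 3 to 5 for the step to P20. All genotype counts, averaged effect included, stayed at 0 in every setting. Of the 20 member values past the threshold, 8 were not past it in at least 1 setting, all of them named in the report except the step of Prx to P0 (adjusted p of 0.00372 to 0.0957 in biallelic and 7.48e-05 to 0.0802 in wild type tongues), and 1 changed sign; of the 59 not past it, 20 changed sign in at least 1 setting. The sign changes of values more than 1 SE from 0 with all libraries kept were Egr2 from E13.5 to P0 in biallelic tongues (-0.476 under quantile normalization), and the averaged Egr2 genotype effect (-0.008 on the log2(RPM + 1) scale). Without wild type chondrocyte animals 7, 8 and 9 (chosen after seeing the data) Mbp (-0.051), Egr2 (-0.255) and Pmp22 (-0.177) changed sign; the cause was not tested. Without the filter 20373 genes were called for the step to P0 in wild type tongues, against 10627. Deviations of same-numbered libraries had low positive correlations for E13.5 (0.042 to 0.159). Their P0 correlations were of mixed sign (-0.486 to 0.362), and their P20 correlations were negative (-0.647 to -0.288). Among differently numbered pairs the highest values were 0.055 for E13.5, 0.683 for P0 and 0.618 for P20. With so few pairs and no litters named, these values cannot decide whether the numbers pair the samples. With a replicate block the counts of members called were 0 for genotype at each stage and 4, 7, 5 and 4 for the stage steps. Scaling to reads in listed genes, added after seeing the data, changed the median of all genes from P0 to P20 to 0.02 in biallelic and 0.04 in wild type tongues. Depth limits Mag, Egr2 and S100b, whose tongue values rest on 123 reads or fewer per library.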
